A study of Mus musculus with 10 samples.

Results

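The clustered protocadherins are 3 tandem families of cell adhesion genes, Pcdha, Pcdhb and Pcdhg, that lie side by side on mouse chromosome 18. The 57 members were taken from the GENCODE M21 annotation as the protein-coding genes on that chromosome whose symbol is Pcdha, Pcdhac, Pcdhb, Pcdhga, Pcdhgb or Pcdhgc followed by a number, out of 21755 protein-coding genes on the autosomes and X. They were 14 Pcdha genes, 22 Pcdhb genes and 21 Pcdhg genes. One symbol, Pcdha11, is carried by 2 gene identifiers, and both were kept. A loop belonged to the clusters when at least 1 of its 2 anchors, each a 10 kb bin, overlapped a member. The lists held 9 such loops of 53424 under M0[CTR], 7 of 58260 under M2[IL-4], 12 of 67728 under M2p[pIL-4], 7 of 55012 under IFNG and 10 of 67000 under pIL-4 + IFNG.

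Hi-C ligates and sequences pieces of chromatin that are neighbours in nuclear space, and a loop here is a pair of bins that the authors listed as a loop. The cells were bone marrow-derived macrophages of female wild type C57BL/6 mice aged 2 to 3 months, grown with M-CSF. Treatments began on day 6. M0[CTR] cells had no further cytokine, 24 h of IL-4 (20 ng/ml) gave M2[IL-4] cells, and a wash and 24 h of rest after the same exposure gave M2p[pIL-4] cells. Unprimed cells given 20 ng/ml IFNG for 3 h formed the group IFNG, and primed and rested cells given the same formed the group pIL-4 + IFNG. The sources do not say whether M0[CTR] and unprimed IFNG cells were kept in culture as long as the IL-4 exposed cells. If they were not, time in culture cannot be told apart from IL-4 exposure and washout. Each group had 2 replicates that were merged in 1 list, so no difference between lists has a replicate check, intervals cover counting error only, and each test compares the lists and not the conditions. Hi-C loops carry no expression, so neither the cell type nor the activity of a member was checked against marker genes.

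Clustered protocadherins are known from neurons, where each cell displays a different combination of them at its surface and uses it to tell its own branches from those of other cells. Each Pcdha and Pcdhg messenger RNA joins a variable first exon, which has its own promoter, to constant exons shared by the whole family, whereas Pcdhb proteins are encoded by a single exon each. The C-type genes Pcdhac1, Pcdhac2, Pcdhgc3, Pcdhgc4 and Pcdhgc5 close the Pcdha and Pcdhg arrays and are regulated apart from the other variable genes. In neurons, promoter choice involves CTCF and cohesin, which hold distal enhancers near the chosen promoter, and some of those enhancers lie past the end of the Pcdhg array, towards and within Diaph1. Diaph1 encodes a formin that nucleates actin filaments.

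In GRCm38 coordinates the members ran from chr18:36930184-37841873, a stretch of 912 kb, all on the plus strand. Pcdha occupied chr18:36930184-37187661, Pcdhb chr18:37264938-37524479 and Pcdhg chr18:37661793-37841873. Because Pcdha and Pcdhg genes share their constant exons, the annotated gene bodies within each of these families overlap and end within a few bases of each other. A loop near the 3′ end of Pcdhg therefore overlaps the bodies of nearly all Pcdhg genes at once. For this reason the position of an anchor is given below by the gene whose start it holds.

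All loops of the clusters were at Pcdhg. No loop in any of the 5 lists had an anchor in a bin of Pcdha or of Pcdhb. The 45 loops of the 5 lists came down to 16 different bin pairs, and 14 of these touched each other and formed 1 patch. On its left the patch took 4 bins at chr18:37740001-37780000, which hold the starts of Pcdhgb6 and Pcdhga10, then of Pcdhgb7 and Pcdhga11, then of Pcdhga12, and in the last bin no start. On its right it took 5 bins at chr18:37840001-37890000. The first of these holds the end of the shared Pcdhg constant exons and the 3′ end of Diaph1, and the other 4 lie within Diaph1, which is on the minus strand at chr18:37843601-37935476. The 14 pairs were out of 20 possible pairs of these bins and spanned 80 to 140 kb. Of the 45 loops, 43 (95.6%) were in the patch.

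**Figure D1:**
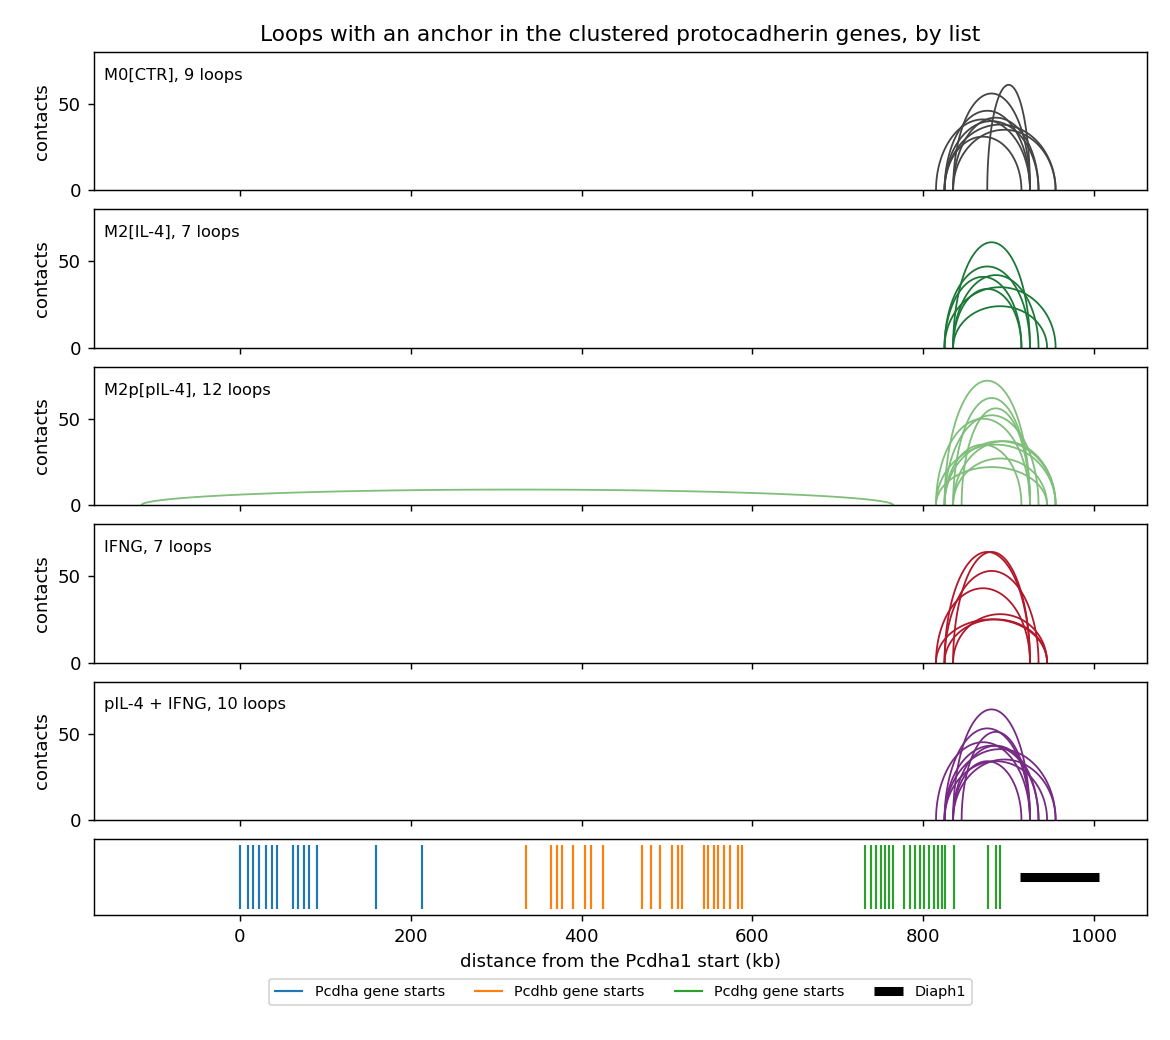
Loops with an anchor in a clustered protocadherin gene in each of the 5 lists, drawn as arcs between the centres of their 2 bins, with distance from the Pcdha1 start in kb on the horizontal axis and the height of the arc giving the contacts. Ticks in the lowest panel are gene starts of Pcdha, Pcdhb and Pcdhg, and the bar is Diaph1. All 5 lists show arcs from the last variable Pcdhg genes to Diaph1. The arcs that start elsewhere are the 50 kb loop from Pcdhgc3 to Diaph1 in M0[CTR] with 61 contacts and the 880 kb loop of M2p[pIL-4] with 9 contacts.

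The C-type genes and the earlier variable genes had little or no looping at their starts. Pcdhac1 and Pcdhac2 had no loop in any list, at the start or along the body, and neither had Pcdha1, Pcdha2 or Pcdha3 nor Pcdhb1, Pcdhb2 or Pcdhb3. Pcdhgc3 had 1 loop at its start, in M0[CTR], and Pcdhgc4 and Pcdhgc5 had none. The 3 members with the most loops at their start bin were Pcdhgb7 and Pcdhga11, which share a bin, and Pcdhga12.

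The number of loops at the bin of Pcdhgb7 and Pcdhga11 was 4 under M0[CTR], 3 under M2[IL-4], 4 under M2p[pIL-4], 3 under IFNG and 4 under pIL-4 + IFNG. The bin of Pcdhga12 had 3, 4, 3, 2 and 4 loops in the same order. The bin of Pcdhgb6 and Pcdhga10 had 1, 0, 3, 2 and 1 loops. Pcdhgb6 and Pcdhga10 were thus the only members of the patch whose start bin was without a loop in 1 list, M2[IL-4]. On the other side, the bin at chr18:37850001-37860000 was used most, by 17 of the 45 loops, with 4, 2, 4, 3 and 4 loops in the order above. The bin at chr18:37880001-37890000, further into Diaph1, had 2, 1, 3, 0 and 2 loops. IFNG was the only list without a loop to that bin and also the only one without a loop to the bin at chr18:37840001-37850000.

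**Figure D2:**
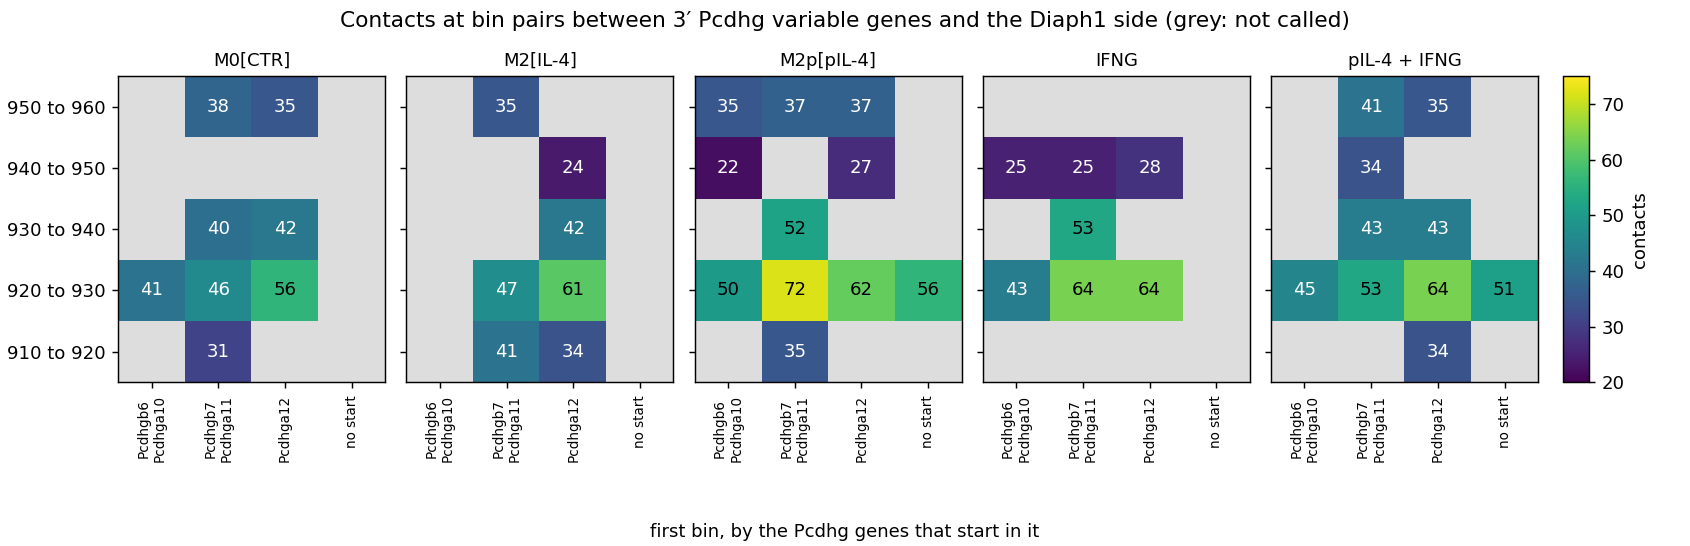
Contacts at each bin pair of the patch in each list. The horizontal axis gives the first bin by the Pcdhg genes that start in it, the vertical axis the distance of the second bin from the Pcdha1 start in kb, and colour and number the contacts, with grey for a pair that was not called. The row from 920 to 930 kb, which is the most used bin in Diaph1, is filled for the Pcdhgb7 and Pcdhga11 bin and for the Pcdhga12 bin in all 5 lists, and its highest value is 72 contacts in M2p[pIL-4].

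Diaph1 was the partner of nearly every cluster loop. It overlapped the other anchor, or the same one at the shared bin, in 9 of 9 loops under M0[CTR], 7 of 7 under M2[IL-4], 11 of 12 under M2p[pIL-4], 7 of 7 under IFNG and 10 of 10 under pIL-4 + IFNG. Seen from Diaph1, these loops were 9 of 17, 7 of 14, 11 of 19, 7 of 15 and 10 of 21 of its loops in the same order. The share of Diaph1 loops that ended in Pcdhg thus lay between 46.7% in IFNG (95% Wilson interval 24.8 to 69.9%) and 57.9% in M2p[pIL-4] (36.3 to 76.9%). These intervals overlapped.

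The pair of bins with the most contacts summed over the 5 lists joined the Pcdhga12 start to the bin at chr18:37850001-37860000, a span of 90 kb. Its contacts were 56 under M0[CTR], 61 under M2[IL-4], 62 under M2p[pIL-4], 64 under IFNG and 64 under pIL-4 + IFNG. This pair varied little, from 56 contacts (95% Poisson interval 42.3 to 72.7) to 64 (49.3 to 81.7). The pair from the Pcdhgb7 and Pcdhga11 start to the same bin, at 100 kb, was the longest cluster pair called in all 5 lists and had 46, 47, 72, 64 and 53 contacts in the same order. Here the low values were those of M0[CTR] and M2[IL-4], and the high value was that of M2p[pIL-4]. Only these 2 of the 16 pairs (12.5%) were called in all 5 lists, beside 9.18% of the 153264 bin pairs called anywhere in the genome, and 3 (18.8%) were called in 1 list only, beside 55.5% of all.

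A further 3 pairs were called in 4 lists. The pair from Pcdhgb6 and Pcdhga10 to chr18:37850001-37860000 had 41 contacts under M0[CTR], 50 under M2p[pIL-4], 43 under IFNG and 45 under pIL-4 + IFNG. The pair from Pcdhgb7 and Pcdhga11 to chr18:37860001-37870000 had 40, 52, 53 and 43 contacts in those lists. Both were missing from M2[IL-4], where bin pairs of the same span were called with as few as 18 contacts. The pair from Pcdhgb7 and Pcdhga11 to chr18:37880001-37890000 had 38 contacts under M0[CTR], 35 under M2[IL-4], 37 under M2p[pIL-4] and 41 under pIL-4 + IFNG, and was missing from IFNG. A pair that was not called has an unknown number of contacts, which need not be low.

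**Figure D3:**
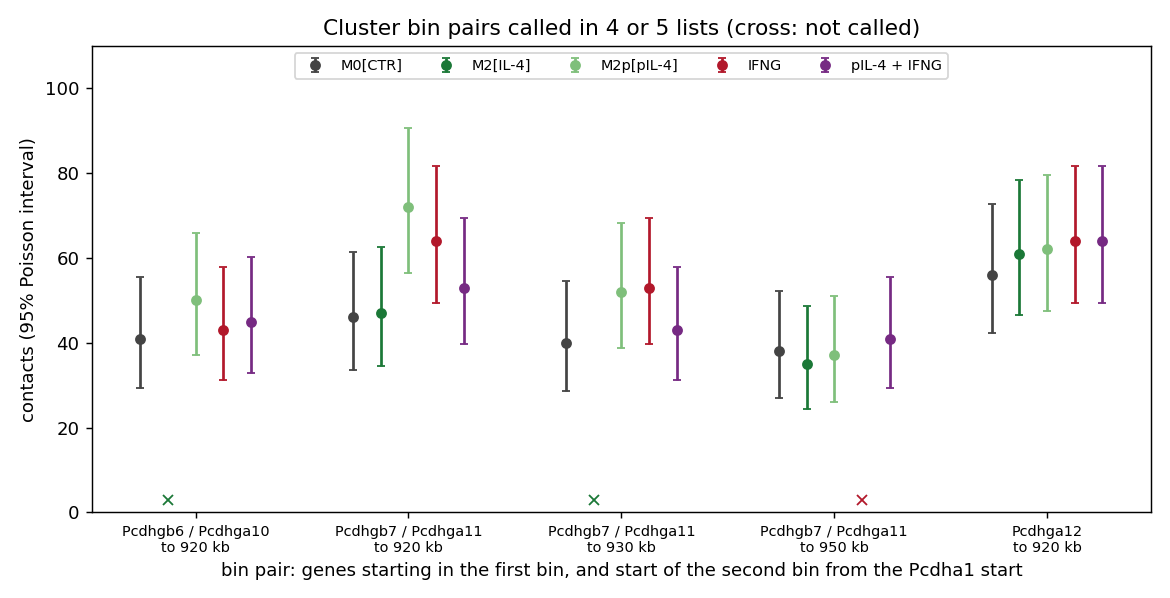
Contacts at the 5 cluster bin pairs called in 4 or 5 lists. Points are the contacts of each list, bars are 95% Poisson intervals, crosses mark lists that did not call the pair, and the horizontal axis names the genes that start in the first bin and the start of the second bin in kb from the Pcdha1 start. At each pair the intervals of the lists that called it overlap, and the widest gap is 46 against 72 contacts at the pair from Pcdhgb7 and Pcdhga11.

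Only 2 of the bin pairs lay apart from the patch, and each was in a single list. In M0[CTR] the Pcdhgc3 start at chr18:37800001-37810000 was paired with chr18:37850001-37860000 in Diaph1, at 50 kb, with 61 contacts, a value above 59.0% of the M0[CTR] loops of that span. In M2p[pIL-4] the Pcdhga5 start at chr18:37690001-37700000 was paired with chr18:36810001-36820000, upstream of all members, at 880 kb. This second loop had 9 contacts, above 8.96% of the M2p[pIL-4] loops of its span, where the lowest called value was 8. It was the only loop that crossed Pcdha and Pcdhb with an anchor in a member. Another 2 loops passed over all the members without an anchor in them, both in IFNG, 1 from Ik to Hdac3 at 1190 kb and 1 from Hars to Diaph1 at 1120 kb, with 10 contacts each.

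The cluster loops had a shorter median span than all loops, and their median strength was close to that of other loops of their span. Their median span was 100, 100, 110, 110 and 105 kb in the same order of lists, where all loops of these lists had medians of 170, 160, 160, 180 and 160 kb. Strength was taken as the contacts of a loop over the median contacts of all loops of the same span in the same list, so that 1 is a typical loop. The median strength of the cluster loops was 1.05 under M0[CTR], 0.972 under M2[IL-4], 1.04 under M2p[pIL-4], 1.08 under IFNG and 1.13 under pIL-4 + IFNG. The strongest was the Pcdhgb7 and Pcdhga11 pair to chr18:37850001-37860000 in M2p[pIL-4], at 1.80, and it was above 96.9% of the loops of its span. The same pair had a strength of 1.15 under M0[CTR], 1.15 under M2[IL-4], 1.56 under IFNG and 1.32 under pIL-4 + IFNG.

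The region without anchors was long and full of genes. From chr18:36820001-37690000, a stretch of 870 kb, no bin was an anchor in any of the 5 lists. It holds 47 starts of protein-coding genes, of which 42 are members, namely all of Pcdha, all of Pcdhb and the first 6 Pcdhg genes. Among the 15960 stretches of the genome without an anchor, it ranked 9 by the number of coding starts and 400 by length. The stretch at chr18:37700001-37740000 held 6 more member starts and no anchor. Among the stretches with at least as many coding starts were arrays of olfactory receptor (Olfr) and vomeronasal receptor (Vmn1r) genes, which are also families of tandem copies. The end of the 870 kb stretch at Pcdhga5 rests on the single M2p[pIL-4] loop of 9 contacts. The other anchor of that loop is the bin just before the start of the stretch. With bin pairs called in at least 2 lists both ends moved, a setting chosen after the data were seen. The stretch then ran for 960 kb, from chr18:36780001-37740000, and took in 49 member starts.

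By bins, none of the 26 bins of Pcdha (95% Wilson interval 0 to 12.9%) and none of the 20 bins of Pcdhb (0 to 16.1%) was an anchor in any list. Of the 19 bins of Pcdhg, 7 were (36.8%, 19.1 to 59.0%). Among all bins that overlap a protein-coding gene the share was 38.3%. Pcdhg thus lay close to the genome, and Pcdha and Pcdhb lay below it, in bins that are neighbours and do not vary independently.

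By starts, 5 of 41 bins that hold a member start were anchors (12.2%, 5.32 to 25.5%), beside 52.3% of the bins that hold any coding start. By gene bodies, the compared tandem families Hox and Ms4a had larger shares. Bins of the 39 Hox genes, which pattern the body axis, were anchors in 29 of 44 cases (65.9%, 51.1 to 78.1%). Bins of the 19 Ms4a genes, membrane proteins of blood cells, were anchors in 47 of 48 cases (97.9%, 89.1 to 99.6%). Neither interval overlapped that of the 65 member bins, 7 of which were anchors (10.8%, 5.32 to 20.6%). The bins of a tandem family are neighbours and do not vary independently, so these intervals do not measure the spread between families.

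**Figure D4:**
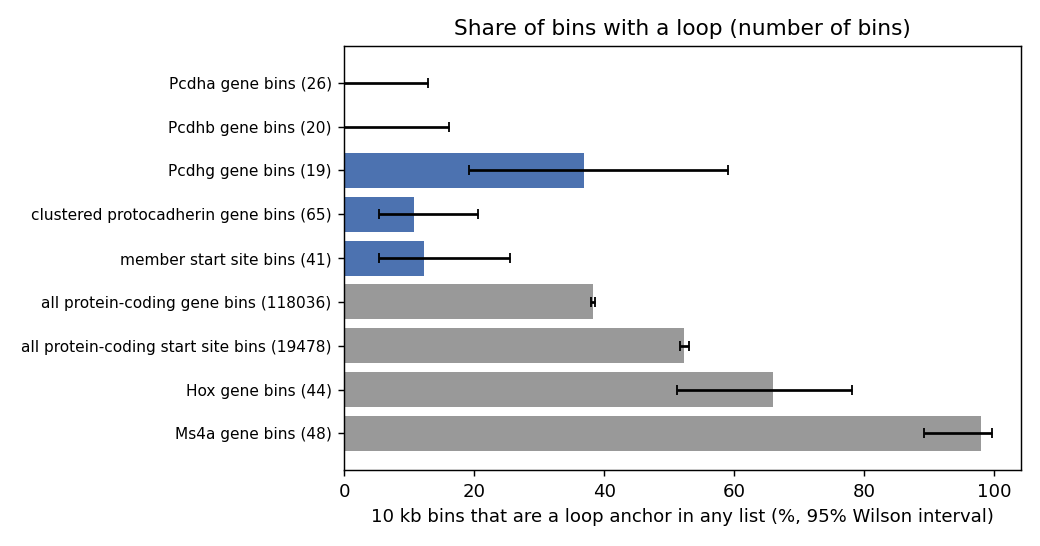
Share of 10 kb bins that are a loop anchor in at least 1 of the 5 lists, in percent, for the clustered protocadherins (blue) and for compared sets (grey), with the number of bins in brackets and 95% Wilson intervals as bars. Pcdha and Pcdhb are at 0, Pcdhg at 36.8% lies near the 38.3% of all coding gene bins, and the Hox and Ms4a bins lie above it.

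Sequence features of these bins that bear on Hi-C were compared with the genome. The median GC content was 40.6% in Pcdha bins, 40.5% in Pcdhb bins and 45.7% in Pcdhg bins, beside 42.6% in all coding gene bins. MboI, the enzyme that cut the chromatin here, had a median of 26 sites per bin in Pcdha, 23.5 in Pcdhb and 28 in Pcdhg, beside 24. The 6 left anchor bins of cluster loops had more, with a median of 35.5 sites. The 6 right anchor bins had a median of 25, beside 24 in all loop anchors. Of the positions in member genes, 8.89% in Pcdha, 4.17% in Pcdhb and 1.94% in Pcdhg started a run of 50 bases that occurs again within the clusters. Reads from such repeats may not be placed uniquely. Repeats were thus most frequent where no anchor was called, GC and cut sites there were near the genome, and the part of these features in the loop calls was not tested.

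The same bins were searched on both strands for the 12-letter core consensus of CTCF, the factor that stops loop extrusion by cohesin, with no mismatch allowed. An exact match was present in 6 of 26 Pcdha bins (23.1%) and 11 of 20 Pcdhb bins (55%), and in none of the 19 Pcdhg bins. It was present in 4.70% of all bins, 5.88% of coding gene bins and 9.14% of the 70525 loop anchors. The families that had no anchor were therefore those with the largest shares of bins with an exact match. The matches in a family are not independent, since its genes are copies of each other.

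Position and strand of the matches followed the family. In Pcdha, 6 genes each held 1 match, all on the plus strand, 537 to 581 bases after the gene start and in a coding exon. In Pcdhb, 13 genes each held 1 match, all on the minus strand, 2271 to 2810 bases after the start and in a coding exon. Between the ends of Pcdhg and 100 kb further on there were 2 matches, both on the minus strand in the bin at chr18:37880001-37890000, within Diaph1 and outside the exons of coding genes, and this is the anchor bin used by 8 of the 45 loops. The most used anchor bins, those of Pcdhgb7 and Pcdhga11, of Pcdhga12 and at chr18:37850001-37860000, held no exact match. When 1 mismatch was allowed, 69.2% of Pcdha bins, 80% of Pcdhb bins and 68.4% of Pcdhg bins had a match, beside 51.8% of all bins, 57.7% of coding gene bins and 67.2% of loop anchors. At that setting 5 of the 6 left anchor bins of cluster loops and all 6 right anchor bins had a match. The most used anchor bins were among them. A match is a string of letters and not a bound site, and binding was not measured here.

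**Figure D5:**
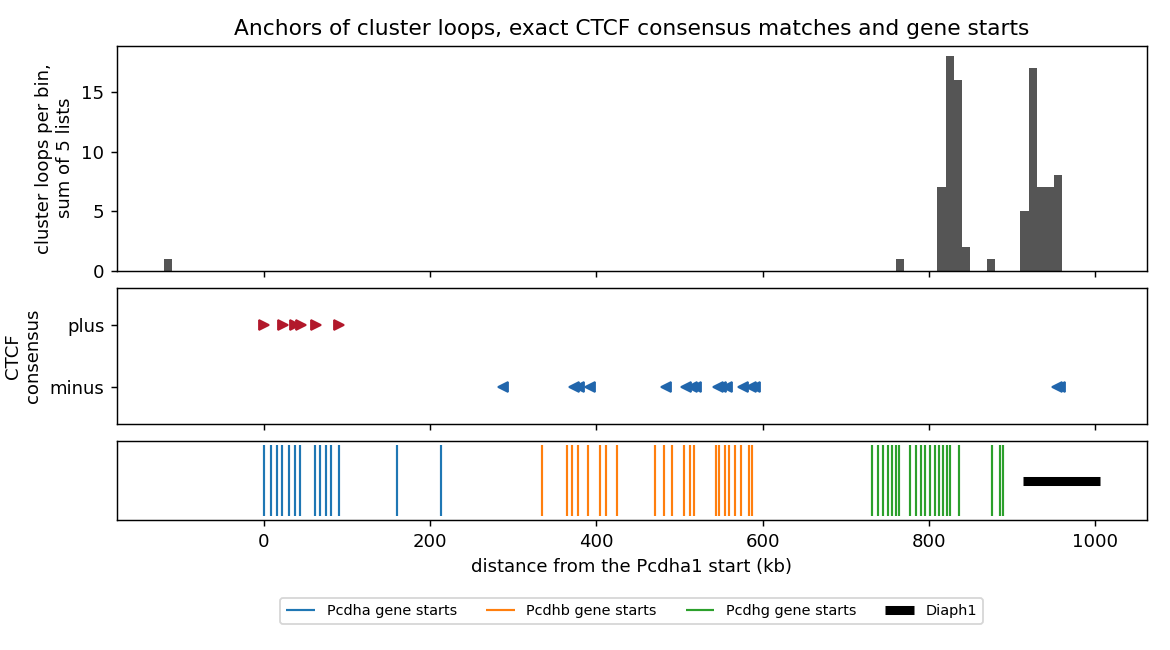
Number of cluster loops at each 10 kb anchor bin, summed over the 5 lists (top), exact matches to the CTCF consensus by strand (middle) and gene starts (bottom), against distance from the Pcdha1 start in kb. The plus strand matches all lie in Pcdha and the minus strand matches lie from the gap before Pcdhb to Diaph1, while most loop anchors are at the last variable Pcdhg genes and Diaph1, with single loops at Pcdhga5, at Pcdhgc3 and upstream of Pcdha1.

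The design asks whether IL-4 changes the looping of untreated cells, whether a change lasts after washout, and whether priming alters the response to IFNG. At the clusters the lists held 7 to 12 loops each. The intervals below take these loops as independent, although 43 of the 45 were bin pairs of 1 patch. They therefore do not measure the full error of such counts. Scaled by list length, the log2 ratio of loop number was -0.49 in M2[IL-4] over M0[CTR] (95% interval -2.15 to 1.11), 0.07 in M2p[pIL-4] over M0[CTR] (-1.30 to 1.499) and -0.40 in IFNG over M0[CTR] (-2.06 to 1.19). It was 0.56 in M2p[pIL-4] over M2[IL-4] (-0.90 to 2.14), -0.25 in pIL-4 + IFNG over M2p[pIL-4] (-1.62 to 1.09) and 0.23 in pIL-4 + IFNG over IFNG (-1.31 to 1.86). All 6 intervals included 0 and were wide. The comparisons share lists and are not independent.

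The change of loop number was also taken per gene, over all protein-coding genes with at least 5 loops in both lists together, as a log2 ratio of loops plus 1 scaled by list length. Only 18 of the 57 members, all in Pcdhg, had enough loops, and they mostly counted the same loops because their bodies overlap. Along the body of Pcdhga12 there were 2 loops in the IFNG list and 5 in each of the others. It was the only member past 2-fold in any of the 6 comparisons, lower in IFNG than in M0[CTR] with a log2 ratio of -1.04, a difference of 3 loops. The share of all tested genes that were 2-fold lower in that comparison was 5.33%, so 1 of 18 members is near the background, and 4.84% were 2-fold higher.

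In the other comparisons no member passed 2-fold in either direction. The background there was 5.48% of genes higher and 4.10% lower in M2[IL-4] over M0[CTR], and 4.26% higher and 3.71% lower in M2p[pIL-4] over M0[CTR]. It was 6.03% higher and 3.54% lower in M2p[pIL-4] over M2[IL-4], 5.84% higher and 3.66% lower in pIL-4 + IFNG over M2p[pIL-4], and 5.66% higher and 3.38% lower in pIL-4 + IFNG over IFNG. The members' median log2 ratio was -0.45 in M2[IL-4] over M0[CTR], beside -0.06 for all genes, and 0.37 in M2p[pIL-4] over M2[IL-4], beside -0.01. In M2p[pIL-4] over M0[CTR] it was -0.08, beside -0.04, and in IFNG over M0[CTR] it was -0.36, beside -0.04. In pIL-4 + IFNG it was -0.11 over M2p[pIL-4], beside 0.02, and 0.18 over IFNG, beside -0.02.

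Contacts were compared at bin pairs called in both lists, summed per anchor bin with at least 20 contacts, by an exact binomial test (two-sided), adjusted over all bins of the genome by the Benjamini-Hochberg method. No cluster bin passed an adjusted p of 0.05 in any of the 6 comparisons, where 3 or 4 cluster bins were tested in each, and none had an unadjusted p under 0.05 either. The test called few bins anywhere. It called 0.0188% of bins in IFNG over M0[CTR] (4 of 21275) and 0% in the other 5. In those 5, between 349 and 461 bins had an unadjusted p under 0.05, out of 21970 to 25561 tested. That is a smaller share than the 0.05 that a calibrated test gives where nothing differs. Pairs called in only 1 of the lists were left out, so a gained or lost loop could not be seen. The absence of calls at cluster bins therefore does not show that contacts were unchanged.

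Summed over the cluster bin pairs shared by both lists, 226 contacts in M2[IL-4] stood against 213 in M0[CTR], a log2 ratio of 0.09 after scaling (95% interval -0.19 to 0.36). M2p[pIL-4] had 345 against 287 in M0[CTR], a log2 ratio of 0.23 (-0.0049 to 0.46), and IFNG had 224 against 183, a log2 ratio of 0.25 (-0.04 to 0.54). All 3 intervals included 0. The log2 ratio was 0.12 (-0.15 to 0.40) in M2p[pIL-4] over M2[IL-4], -0.12 (-0.34 to 0.10) in pIL-4 + IFNG over M2p[pIL-4] and -0.04 (-0.30 to 0.22) in pIL-4 + IFNG over IFNG. The 2 pairs called in all lists together held 138 contacts per 1000000 under M0[CTR] (113 to 168), 147 under M2[IL-4] (120 to 177), 175 under M2p[pIL-4] (147 to 208), 169 under IFNG (141 to 200) and 155 under pIL-4 + IFNG (128 to 186), where the total is that of contacts at the bin pairs that all 5 lists called. These 5 intervals overlapped.

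Single bin pairs gave the largest differences at 1 place, the pair from the Pcdhgb7 and Pcdhga11 start to chr18:37850001-37860000. Its log2 ratio was 0.61 (0.05 to 1.17) in M2p[pIL-4] over M0[CTR], with an unadjusted exact binomial p of 0.0310 and an adjusted p of 1. It was 0.57 (0.02 to 1.14) in M2p[pIL-4] over M2[IL-4], with an unadjusted p of 0.0406 and an adjusted p of 1. The pair also had the largest ratio in IFNG over M0[CTR], at 0.43 (-0.14 to 1.01), and in pIL-4 + IFNG over M2p[pIL-4], at -0.42 (-0.96 to 0.11). In M2[IL-4] over M0[CTR] the largest was the pair from the same start to chr18:37840001-37850000, with 41 against 31 contacts and a log2 ratio of 0.40 (-0.30 to 1.13). In pIL-4 + IFNG over IFNG it was the pair to chr18:37870001-37880000, with 34 against 25 contacts and a log2 ratio of 0.46 (-0.32 to 1.27). None of these passed adjustment.

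The effect of IFNG with priming was set against that without it at bins whose pairs were called in M0[CTR], IFNG, M2p[pIL-4] and pIL-4 + IFNG. Of 15333 bins, 0% passed an adjusted p of 0.05 in a z test of the difference of the log2 ratios, and 376 had an unadjusted p under 0.05. The bin of Pcdhgb7 and Pcdhga11 had 86 contacts in M0[CTR] and 117 in IFNG. After priming it had 124 without IFNG and 96 with it. The IFNG list was thus higher than its reference without priming and lower with it, a difference of -0.75 on the log2 scale (SE 0.28), with an unadjusted p of 0.0079 and an adjusted p of 1.00. These contacts were those of the bin's pairs to chr18:37850001-37860000 and chr18:37860001-37870000. The first is the pair named above with 72 contacts in M2p[pIL-4], so this difference is not separate from that one. At the bin of Pcdhgb6 and Pcdhga10 the difference was -0.16 (SE 0.43), and at that of Pcdhga12 it was -0.09 (SE 0.37).

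Loops were also classed by which of the 3 lists without IFNG held a match, that is a loop with both anchors within 25 kb. Of the 9 M0[CTR] loops, 8 were shared by all 3 lists (88.9%, 95% Wilson interval 56.5 to 98.01%), beside 86.2% of all M0[CTR] loops. The remaining M0[CTR] loop, at the Pcdhgc3 start, had no match in either of the others and counted as stably repressed (1 of 9, 11.1%, beside 5.86% of all M0[CTR] loops). The 8 shared loops all lay in the patch, so a loop of another list could match several of them. The interval takes them as independent, which they are not. With matching in the same bins, 4 of the 9 were shared (44.4%, beside 37.7% of all M0[CTR] loops). Of the 12 M2p[pIL-4] loops, 1 was Primed, meaning in M2p[pIL-4] only, and it was the 880 kb loop at Pcdhga5 (8.33%, beside 8.35% of all M2p[pIL-4] loops). None of the 7 M2[IL-4] loops was Transient, meaning in M2[IL-4] only, or Memory, meaning absent from M0[CTR] and present in both others, and no M0[CTR] loop was transiently repressed. Over all loops these classes held 7.23%, 6.32% and 4.92%, so that a count of 0 among 7 or 9 loops is near the background.

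Genes around and related to the clusters had loops of their own, and the counts of genes with a loop are to be read beside the 67.2% of all protein-coding genes with a loop along the body in some list. Among 10 genes that flank the clusters or lie between them, 7 had a loop in some list, led by Diaph1, by the histone deacetylase gene Hdac3 with 6, 6, 7, 8 and 8 loops and by the histidyl-tRNA synthetase gene Hars with 6, 5, 4, 4 and 3 loops, in the order of lists used above. Slc25a2 and Taf7, which lie between Pcdhb and Pcdhg, had none. Among 12 nonclustered protocadherins, which are adhesion genes outside the arrays, 4 had a loop. They were Pcdh1 with 8, 12, 8, 6 and 9 loops, Pcdh12 with 2, 4, 4, 1 and 6, Pcdh7 with 2, 3, 4, 2 and 2, and Pcdh9 with 1 loop in M2p[pIL-4]. The other 8 had none in any list. Pcdh1 and Pcdh12 lie further along chromosome 18, and Pcdh7 and Pcdh9 lie on other chromosomes.

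Genes for proteins known to act at or behind the clustered protocadherins were counted in the same way. Of 11 genes for CTCF, cohesin and silencing factors, 9 had a loop in some list, with the most at the histone methyltransferase gene Setdb1 (14, 19, 17, 18 and 14 loops), at Smchd1, a chromosomal silencing factor (13, 7, 11, 10 and 15), and at Stag1, a cohesin subunit (4, 7, 7, 3 and 12). Of 12 genes for cytoplasmic partners, 11 had a loop, with the most at the kinase genes Fyn (38, 47, 64, 31 and 61) and Ptk2b (39, 30, 34, 34 and 36) and at Nckap1l, a subunit of the WAVE actin regulator in blood cells (14, 17, 16, 18 and 17). In each comparison at most 1 gene of each of these 4 lists passed 2-fold in either direction, out of 1 to 9 genes with enough loops, and no share was read from so few genes.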

How the data were processed

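Hi-C loop lists of mouse bone marrow-derived macrophages were analysed, 1 list for each of 5 groups with 2 replicates each (10 samples), grouped by sample titles. Per the labels, the authors used FastQC, Bowtie2, HiC-Pro, Juicer and HOMER with mm10, and their methods describe balanced maps and HICCUPS loops at 25 kb. The deposited lists hold pairs of 10 kb bins and a count of contacts in whole numbers, apparently raw, and no false discovery rate. The caller and threshold behind them are not given in the sources used here. Only called pairs are listed, so the totals of 2174945 to 2787117 contacts per list are not library depth.

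The members and gene lists were chosen with earlier results of these data known. Named singly were the C-type genes, the 3 members per family with the most loops at the start bin, members past a test or past 2-fold in at least 2 comparisons, and the strongest, longest and most changed bin pairs. Pcdhga5, Pcdhgb6, Pcdhga10 and the loops outside the patch were named after their values were seen. Loop numbers were scaled by list length, contacts by the total at shared pairs, with exact intervals. Tests were run on simulated counts drawn for bin pairs already called. That simulation had no calling step, so it does not show how the tests behave on lists of called pairs. Coordinates and genes are GRCm38 and GENCODE M21. Scripts ran in Python 3.11.15 with scipy 1.17.1, pandas 2.3.3, matplotlib 3.10.9 and numpy 2.4.6. Alternatives were other matching distances, scalings, minimums and fold thresholds, and merging of touching pairs.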

Additional observations from a re-analysis of the deposited data

How the results depend on the processing

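No paired analysis was possible because both replicates of a group were merged in 1 list, and for the same reason no replicate could be left out. The number of loops depended most on merging touching bin pairs, which left 3 under M0[CTR], 1 under M2[IL-4], 2 under M2p[pIL-4], 1 under IFNG and 1 under pIL-4 + IFNG. With merged pairs the log2 ratio of loop number turned from 0.07 to -0.93 in M2p[pIL-4] over M0[CTR] and from 0.23 to -0.28 in pIL-4 + IFNG over IFNG, both within the intervals that include 0. The largest shifts were from -0.49 to -1.71 in M2[IL-4] over M0[CTR] and from -0.40 to -1.63 in IFNG over M0[CTR]. Both rest on 1 merged loop against 3 and stayed within the wide main intervals. Matching in the same bins, in place of within 25 kb, gave 1 Transient, 1 Memory, 4 Primed, 3 transiently repressed and 4 shared loops (14.3%, 14.3%, 33.3%, 33.3% and 44.4% of the cluster loops, beside 39.0%, 16.5%, 43.6%, 15.8% and 37.7% of all loops), and matching within 50 kb left 0 stably repressed. In IFNG over M0[CTR], 3 members passed 1.5-fold and 0 passed 2-fold with at least 10 loops, and in pIL-4 + IFNG over IFNG 1 passed 1.5-fold. Over all genes, 628 to 799 per comparison passed 2-fold, 1931 to 2194 passed 1.5-fold and 193 to 304 passed 2-fold with at least 10 loops. In IFNG over M0[CTR], 2 single bin pairs passed the binomial test in place of 4 bins. Of 135 alternative values, 108 counted as unchanged, among them every scaling of the loop ratios. They also include every setting of the binomial and interaction tests at cluster bins, and all the ratios above from merged pairs. A count was unchanged when it stayed within 1.5-fold of the main count. A ratio or a median strength was unchanged when it stayed within the main interval. Calls of cluster bins were 0 under each setting tried. The causes of these shifts were not tested, beyond the smaller number of loops or genes that a setting leaves. With 7 to 12 loops and at most 72 contacts per bin pair, only large differences could be detected.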
